A study of Mus musculus with 48 samples.

Results

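The genes described here encode 9 proteins that astrocytes release or shed and that are known to promote or shape synapses: the thrombospondins Thbs1, Thbs2, Thbs3 and Thbs4, the glypicans Gpc4 and Gpc6, the matricellular pair Sparc and Sparcl1 (hevin), and Chrdl1 (chordin-like 1). They were chosen by gene symbol, with earlier results of these data known, and are 9 of the 24421 genes in each deposited table. RNA was sequenced from 48 mouse libraries labelled as astrocytes and taken from cortex, hippocampus or olfactory bulb, in 15 groups. At postnatal days 1, 7 and 14 (P1, P7, P14) each region had 3 libraries per age, except 4 for cortex at P14. At P28 the libraries were labelled Gabbr1 control or Gabbr1 cKO, a conditional knockout of the gene for GABA-B receptor subunit 1, with 4 controls and 4 knockouts from cortex, 2 and 4 from hippocampus, and 3 of each from olfactory bulb. Labels of 15 of the P28 libraries, all of those from hippocampus and olfactory bulb and 3 from cortex, also list tamoxifen, the drug that switches on an inducible Cre, for controls and knockouts alike; the labels of the other P28 cortex libraries list no treatment. The labels give no Cre driver, strain, sex or pooling of animals, and do not say which libraries came from separate animals, so p-values measure the spread between these libraries, which may in part be technical.

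Astrocytes are the main glial cells that contact synapses, and factors they secrete act on neurons in sequence. Thrombospondins bind the calcium channel subunit encoded by Cacna2d1 and lead to synapses that are structurally complete but postsynaptically silent. Hevin bridges adhesion proteins across the synapse, among them postsynaptic neuroligin, and SPARC can counteract hevin. Gpc4 and Gpc6 are heparan sulfate proteoglycans that recruit AMPA-type glutamate receptors, and Chrdl1 promotes the switch to AMPA receptors that contain the GluA2 subunit, encoded by Gria2.

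Values are reads per gene divided by 1 scaling factor per library, called normalized values below; each table (1 per region for P1 to P14, 1 per region for P28) was scaled on its own, so differences were tested only within a table. Total reads per library ranged from 1773226 to 15008466. Hippocampal libraries had 5098757 to 8986015 reads at P1 and 2539583 to 4248087 at P14. In the olfactory bulb the ranges were 5473837 to 9062118 and 1773226 to 2669394. A single read was thus worth a normalized value of up to 1.79 and 1.99 at P14 in these regions, against up to 0.614 and 0.552 at P1. Low values and zeros at P14 rest on fewer reads there. The ribosomal RNA precursor gene Rn45s took 13.7% to 38.0% of reads, except in hippocampal knockout replicate 2 and olfactory bulb control replicate 2 of P28, where it took 0.594% and 0.476%. Values without these libraries are given for the P28 differences of members where leaving them out moved a difference by over 1.5 times, turned its sign or changed a call. Astrocyte markers (10 genes, among them Aldh1l1, Slc1a3, Aqp4 and Gja1) were all detected in every group, and their summed normalized value rose with age in each region, from 21366-28242 at P1 to 496464-554981 at P14 in cortex, from 13833-15917 to 427309-461104 in hippocampus, and in the olfactory bulb from 5043-7167 to 124253-141312. Neuron markers were also present at P1, at 3713-4694, 2261-2273 and 4861-5216 in the same order, and at 239-486, 284-365 and 622-1091 at P14. Mature oligodendrocyte markers (7 genes) rose with age: their sum went from 336-394 at P1 to 15292-26082 at P14 in cortex, from 76.9-93.6 to 1603-2312 in hippocampus (Mog at 0 in all P14 libraries), and in the olfactory bulb from 103-201 to 1933-2242 (Mag at 0). Limma called 6 of 7 tested higher in cortex and all 4 tested in each of the other regions, and none lower. In bulk libraries fewer cells of a type and less RNA per cell cannot be told apart, and the part that the changing makeup of the libraries plays in the age differences below was not tested.

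The 9 genes lie on 8 chromosomes of the mouse genome (GRCm38, mm10; GENCODE annotation). Exon numbers here count exon stretches merged over all annotated transcripts of a gene. Thbs1 is at chr2:118111876-118127133 on the plus strand, with 22 exons, and Thbs2 at chr17:14665500-14694235 on the minus strand. Thbs3, at chr3:89215180-89226837 on the plus strand, overlaps the gene Mtx1 on the opposite strand. Whether counting used the strand is not given in the sources used here, so reads of Thbs3 and Mtx1 cannot be told apart there and values of Thbs3 are uncertain. Thbs4 is at chr13:92751590-92794818 on the minus strand. The glypicans Gpc4 (chrX:52053021-52165252, minus strand, 9 exons) and Gpc6 (chr14:116925315-117976544, plus strand, 10 exons) differ widely in genomic span. Sparc is at chr11:55394500-55423183, Sparcl1 at chr5:104079111-104113733 and Chrdl1 at chrX:143285674-143394262, each on the minus strand with 12 exons.

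RefSeq's promoter table (GRCm38.p6) held 5 of the 9 genes. The 250 bases before the start are shown for 3 of them, because they moved in opposite directions with age: Sparc and Thbs4 rose and Thbs3 fell. Each is read 5′ to 3′ on the gene's strand, and capitals mark matches, on either strand, to TATAAA (the TATA box), GGGCGG (a GC box), TTGGC (an NFI site arm), the full palindromic NFI site (a pair of such arms) or CACGTG (an E-box).
Sparc: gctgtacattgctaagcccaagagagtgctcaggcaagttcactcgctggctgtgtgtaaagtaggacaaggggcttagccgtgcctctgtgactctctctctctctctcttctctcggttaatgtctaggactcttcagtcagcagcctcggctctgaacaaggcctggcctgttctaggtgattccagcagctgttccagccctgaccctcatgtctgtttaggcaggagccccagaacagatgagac
Thbs4: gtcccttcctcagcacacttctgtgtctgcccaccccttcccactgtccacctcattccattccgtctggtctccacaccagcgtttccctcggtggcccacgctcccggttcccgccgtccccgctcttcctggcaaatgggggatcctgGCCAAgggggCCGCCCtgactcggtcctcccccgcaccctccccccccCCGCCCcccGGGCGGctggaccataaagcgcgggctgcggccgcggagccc
Thbs3: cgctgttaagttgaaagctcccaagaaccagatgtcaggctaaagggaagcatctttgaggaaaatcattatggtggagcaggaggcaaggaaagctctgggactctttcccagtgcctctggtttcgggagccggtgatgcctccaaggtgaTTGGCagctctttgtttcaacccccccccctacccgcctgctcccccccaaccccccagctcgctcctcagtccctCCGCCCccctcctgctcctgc
These windows are chr11:55420081-55420330, chr13:92794819-92795068 and chr3:89214930-89215179. The Sparc window held none of the 5 motifs. It lies inside the annotated gene, which ends at 55423183 on the minus strand, so it precedes an internal start. The bases before the outermost Sparc start were not examined. Thbs4 had 3 GC boxes and 1 NFI arm, and Thbs3 had 1 of each. Of the genes not shown, Thbs2 had 1 TATA box match and 2 NFI arms, and Gpc4 had 1 GC box. Whether these matches bear on the direction with age was not tested. Among all 32851 promoter windows of the same length, 32.7% held GGGCGG, 41.5% TTGGC, 12.4% TATAAA, 6.02% CACGTG and 0.0365% the full NFI site, so matches to the first and second of these are common.

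Between P1 and P14 Sparcl1, Sparc, Chrdl1 and Gpc6 rose in all 3 regions, Gpc4 and Thbs4 in 2 and Thbs2 in 1, while Thbs3 fell in 2 and Thbs1 in 1. Differences are given as log2 of the normalized value plus 1, tested with limma across all genes with a table mean of at least 10, and a gene is called changed at a Benjamini-Hochberg adjusted p under 0.05. In cortex 5 of 9 members were called higher at P14 than at P1 and 2 lower, against 24.0% of all 11822 tested genes higher and 40.3% lower. In hippocampus 6 of 9 were higher and 1 lower, against 21.0% and 28.5% of 11578 genes. In the olfactory bulb 6 of the 8 tested were higher and none lower, against 24.8% and 31.4% of 11490 genes; Thbs4 did not reach the minimum there. The members' median log2 difference was 1.03 in cortex, 1.68 in hippocampus and 2.85 in the olfactory bulb, where the median of all tested genes was -0.27, -0.29 and -0.24. Those medians of all genes lie below 0 in the deposited scaling. In cortex, TMM scaling brought the median to -0.05 and the share of higher among called genes from 37.4% to 47.9%. Against the bulk of genes, a member's rise in cortex thus reads slightly larger and a fall slightly smaller.

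**Figure D1:**
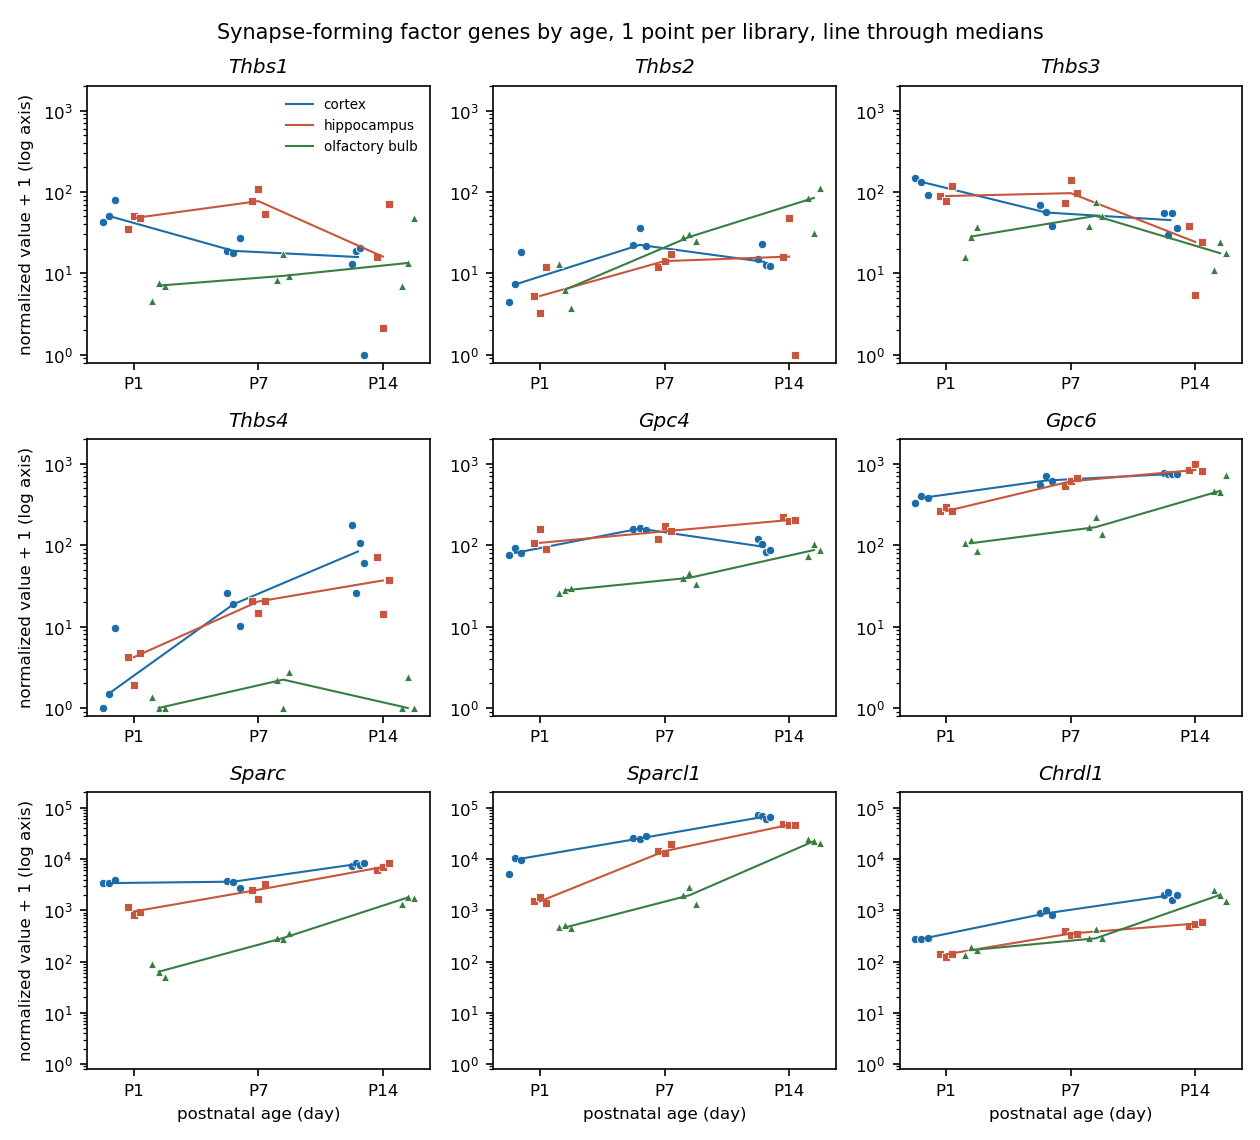
Normalized value plus 1 (log axis) of each of the 9 genes at P1, P7 and P14, 1 point per library, with a line through the medians of each region. Sparcl1, Chrdl1 and Gpc6 climb in all 3 regions, Thbs3 ends lower in cortex and hippocampus, and Thbs4 stays at or under 1.78 in the olfactory bulb.

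**Figure D2:**
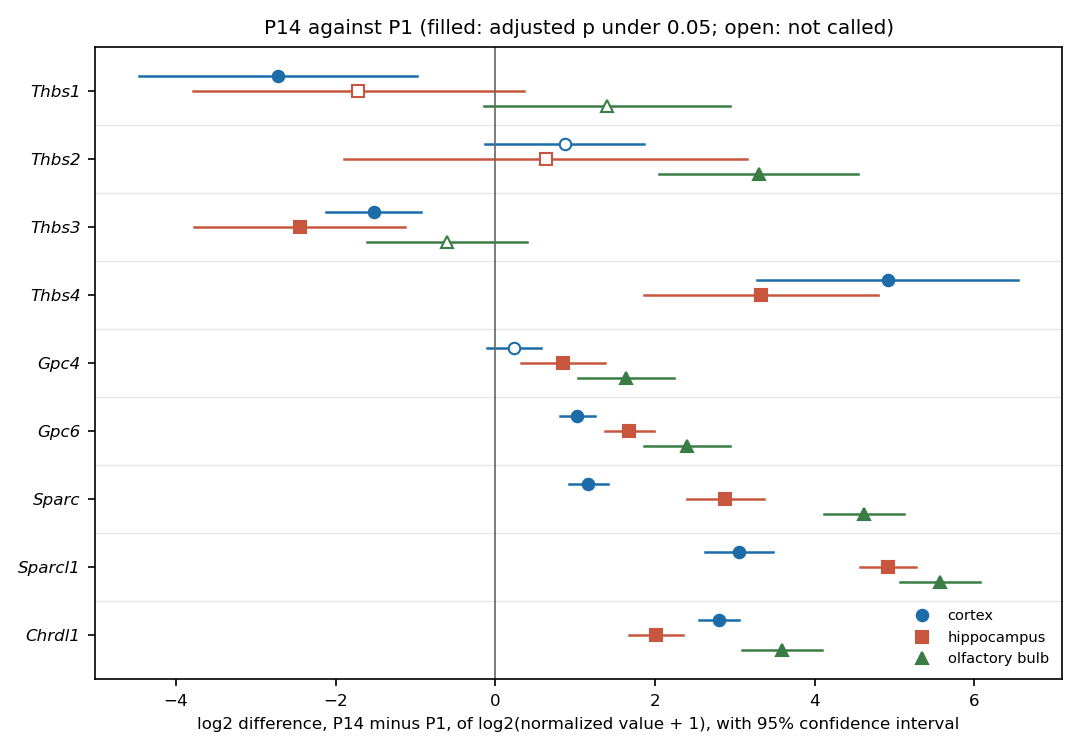
Log2 difference between P14 and P1 of each gene in each region, with its 95% confidence interval from limma; filled symbols have an adjusted p under 0.05. Sparcl1 has the highest estimate of the 9 in hippocampus and olfactory bulb and Thbs4 in cortex, and Thbs3 lies below 0 in all 3 regions.

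Sparcl1, which encodes hevin, was the most abundant member. In cortex its normalized values were 5025, 10327 and 9768 at P1, 25322, 25166 and 28872 at P7, and 72350.4, 68046, 59350.0 and 66441 at P14. No library of one age overlapped those of the next. Limma gave a log2 difference between P14 and P1 of 3.06 (SE 0.20, adjusted p = 1.96e-08). In hippocampus the libraries held 1501, 1811 and 1392 at P1, 14324, 13018 and 20063 at P7, and 48809.5, 45857 and 46740.3 at P14. That is a difference of 4.92 (SE 0.16, limma adjusted p = 1.35e-09), of which 3.32 came between P1 and P7. Olfactory bulb values were 463, 520.5 and 453 at P1, 1973, 2894 and 1303 at P7, then 24790.4, 22439.7 and 21056 at P14. There the difference was 5.57 (SE 0.23, limma adjusted p = 3.55e-08), and the later step was the larger estimate, 3.54 from P7 to P14 against 2.03 from P1 to P7. All 6 steps between neighbouring ages were called in limma.

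Per kilobase of exon, the scale on which genes of different length can be compared, the mean of Sparcl1 ranked 10th of 19875 protein-coding genes in cortex at P1 and 3rd at P14. In hippocampus its rank went from 67 to 2, and in the olfactory bulb from 407 to 2. At P28 it ranked between 1 and 4 in every group. In cortex it took 0.172% to 0.351% of the reads outside Rn45s at P1 and 1.57% to 1.88% at P14.

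Sparc, the relative of hevin that can oppose it, rose in cortex in the step after P7 and in the other regions in both steps. Its cortical values were 3403, 3353 and 3883 at P1, 3773, 3632 and 2741 at P7, then 7234, 8462, 7665 and 8491 at P14. The P1 and P7 libraries overlapped (log2 difference -0.08, SE 0.12, limma adjusted p = 0.647; 0.00 with TMM scaling), and every P14 library lay above them. From P7 to P14 the difference was 1.25 (SE 0.11, limma adjusted p = 1.77e-06). In hippocampus Sparc went from 1166, 809.9 and 949 at P1 through 2524, 1678 and 3203 at P7 to 6021, 7023 and 8445 at P14. Both steps were called, at 1.31 and 1.57 (limma adjusted p = 0.00146 and 0.000391). The gene started low in the olfactory bulb, at 90.7, 62.5 and 49.1, with 288, 269 and 355 at P7, then 1326, 1836 and 1778 at P14. The change from P1 to P14 came to 4.62 (SE 0.23, limma adjusted p = 9.21e-08).

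Per kilobase, Sparc ranked 69th at P1 and 34th at P14 in cortex, 197th and 31st in hippocampus, and 4898th and 139th in the olfactory bulb. Sparc is also known from microglia and vessel cells. Summed microglia markers (10 genes) rose over the same ages, from 426-757 to 1458-3348 in cortex, from 111-168 to 246-707 in hippocampus, and in the olfactory bulb from 45.2-67.0 to 322-496. Summed endothelial markers (8 genes) in hippocampus were 48.5-125 at P1, 317-650 at P7 and 1.79-52.9 at P14, with Cldn5, Tie1 and Esam at 0 in all P14 libraries. In the olfactory bulb, where the estimate for Sparc was highest, they went from 22.5-27.2 to 151-1193, and all 7 tested were called higher. In cortex they were 40.6-517 and 88.7-648. The part of these cells in the values of Sparc was not tested.

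The ratio of Sparcl1 to Sparc within a library does not depend on the scaling factor. In cortex it was 1.48 to 3.08 at P1 and 7.74 to 10 at P14, a difference in mean log2 ratio from 1.17 ± 0.55 (SD, n = 3) to 3.06 ± 0.17 (SD, n = 4). The groups did not overlap, and the exact two-sided permutation p was 0.0571, the smallest that 4 against 3 libraries allow (0.2 adjusted over the 12 ratio comparisons made). In hippocampus the mean log2 ratio was 0.69 ± 0.42 (SD, n = 3) at P1 and 2.73 ± 0.28 (SD, n = 3) at P14, and in the olfactory bulb 2.85 ± 0.45 and 3.80 ± 0.37 (SD, n = 3 each). In both, all P14 libraries lay above all P1 libraries, at the smallest exact permutation p of 0.1 for 3 against 3. Much of the shift in cortex and hippocampus was in place by P7, with mean log2 ratios of 2.98 and 2.70, whereas the olfactory bulb ratio was 2.69 at P7.

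**Figure D3:**
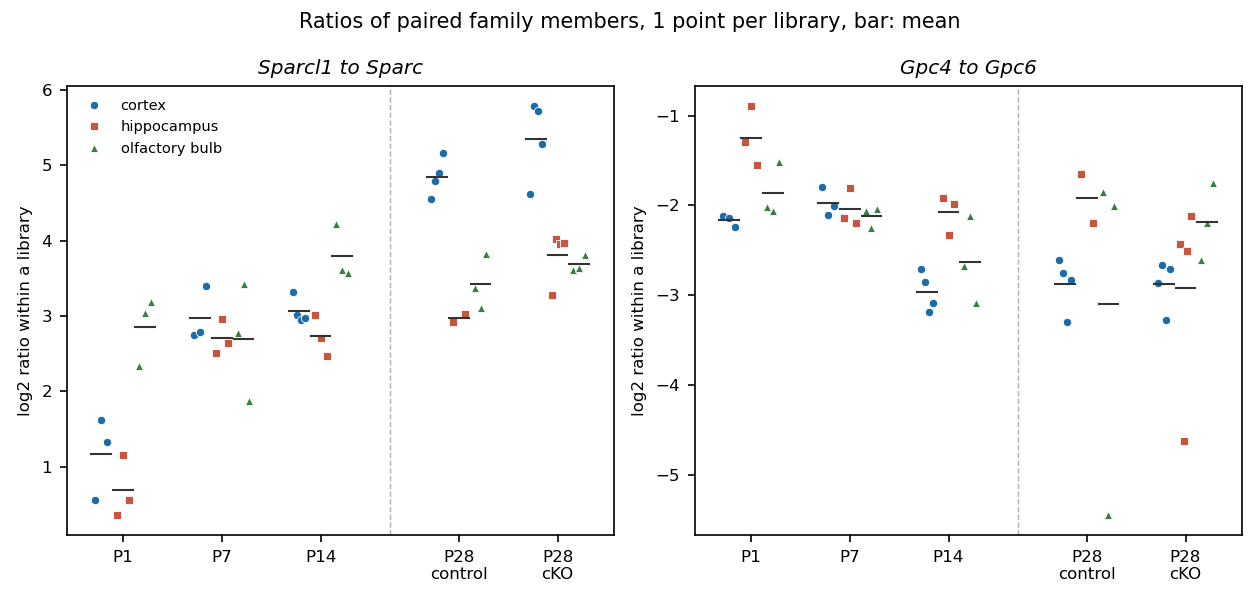
Log2 ratio of Sparcl1 to Sparc (left) and of Gpc4 to Gpc6 (right) within each library, for P1, P7, P14 and P28 control and cKO; bars are means. The left panel rises in every region from P1 to P14 and the right panel falls, and the lone low points at P28 on the right are the libraries with little Rn45s.

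Chrdl1, a secreted BMP antagonist, rose at every step in limma. In cortex it held 271, 276 and 283 at P1, 872, 996 and 807 at P7, and 1985, 2275, 1561 and 1961 at P14, with no overlap between ages. The change from P1 to P14 came to 2.80 (SE 0.12, limma adjusted p = 3.32e-10). Hippocampal values were 138, 124 and 142, then 393, 324 and 352, then 490.1, 550.2 and 600.2. The hippocampal difference was 2.01 (SE 0.15, limma adjusted p = 8.63e-07), with the larger part, 1.39, before P7; the later step of 0.62 was not called without P7 replicate 2 (0.55, adjusted p = 0.0616). Olfactory bulb libraries had 131, 195 and 167 at P1, 282, 426 and 284 at P7, and 2461, 2012 and 1526 at P14. Here 2.59 of a total of 3.59 came after P7 (SE 0.23 for each, limma adjusted p = 1.05e-05 and 4.66e-07), and the earlier step of 1.00 was not called without P1 replicate 1, P1 replicate 3 or P7 replicate 2 (0.84, 1.02 and 0.80). At P14 Chrdl1 ranked 378th per kilobase in cortex and 230th in the olfactory bulb, but 1481st in hippocampus; those ranks are set within each table, and the difference between regions was not tested. Chrdl1 and Gpc4 are X-linked, and the male-specific transcript Ddx3y was at or near 0 in the cortex libraries of P1 and P7 but present in replicates 3 and 4 of P14. With Ddx3y as a covariate the cortical difference of Chrdl1 stayed called, within the range of 2.68 to 3.06 over all alternatives.

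The pair of glypicans moved unequally. Gpc6 rose from P1 to P14 in each region: in cortex from 324, 406 and 378 at P1 through 553, 701 and 620.4 at P7 to 773, 739, 745 and 746 at P14. The P14 libraries all lay above the P1 libraries, and the change was 1.03 (SE 0.10, limma adjusted p = 1.32e-06). In hippocampus it went from 260.0, 295 and 261 through 530.2, 607 and 675 to 837, 986 and 804, a difference of 1.68 (SE 0.14, limma adjusted p = 2.13e-06). Olfactory bulb astrocytes went from 105, 115 and 83.8 through 165, 218 and 137 to 463, 447 and 736, a difference of 2.40 (SE 0.24, limma adjusted p = 1.21e-05).

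Gpc4 peaked at P7 in cortex. The libraries held 73.9, 91.2 and 79.3 at P1, 159, 162 and 153 at P7, then 117, 101, 80.7 and 87.2 at P14. The P7 libraries stood above all others, with a rise of 0.95 (SE 0.17, limma adjusted p = 0.000617) and then a log2 fall of 0.72 (SE 0.15, limma adjusted p = 0.00177). Over the whole interval the cortical difference of 0.23 was not called in limma (adjusted p = 0.199); it was called, at 0.44 to 0.51, under TMM, median-ratio and quantile scaling, in edgeR and DESeq2 on recovered reads, and with Ddx3y as a covariate. In hippocampus Gpc4 had 106, 158 and 88.5 at P1, 119.6, 173 and 147 at P7, then 221, 195 and 202 at P14. The P14 libraries lay above the rest, and the difference from P1 was 0.85 (SE 0.24, limma adjusted p = 0.0123; 0.67 and 0.0599 without P1 replicate 3). The olfactory bulb values 25.1, 26.9 and 28.7 at P1, 38.7, 45.0 and 32.6 at P7, and 71.6, 102.0 and 86.1 at P14 did not overlap between ages. The change from P1 to P14 came to 1.64 (SE 0.27, limma adjusted p = 0.000430). The log2 ratio of Gpc4 to Gpc6 was lower at P14 than at P1 in every region, by 0.79 in cortex, 0.83 in hippocampus and 0.76 in the olfactory bulb. No P14 library overlapped P1 in any of the 3, and the exact permutation p values were 0.0571, 0.1 and 0.1, each the smallest possible (0.2 after adjustment over 12).

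The thrombospondins were low on the scale per kilobase, and Thbs4 was the only 1 of the 4 called higher at P14 than at P1 in more than 1 region. At P14 in cortex Thbs4 ranked 3857th, Thbs3 7264th, Thbs2 10565th and Thbs1 10665th of the 19875 protein-coding genes. Reads per library for these genes at P1 to P14 went up to 524 (Thbs3 in cortex at P1) and were under 10 in several libraries.

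Thbs4 encodes a pentameric thrombospondin. In cortex it was at 0, 0.504 and 8.72 at P1, 24.8, 17.8 and 9.06 at P7, and 178, 24.5, 105 and 59.7 at P14. All P14 libraries exceeded all P1 libraries, with a log2 difference of 4.91 (SE 0.76, limma adjusted p = 7.01e-05). Since 1 of the P1 libraries had no read, the size of that estimate depends on the pseudocount, and over all alternatives it ran from 2.98 to 6.48. In hippocampus the values were 3.21, 0.891 and 3.69 at P1, 19.3, 13.8 and 19.9 at P7, and 70.9, 13.2 and 35.8 at P14. That difference was 3.33 (SE 0.67, limma adjusted p = 0.00152). The olfactory bulb libraries had at most 3 reads each at P1, P7 and P14, which leaves normalized values of 0 to 1.78, so Thbs4 was not detectable above the floor there and was not tested.

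Thbs2 rose in the olfactory bulb. It had 12.2, 5.28 and 2.76 at P1, 27.0, 29.3 and 23.7 at P7, and 83.5, 30.3 and 111 at P14, with no overlap between ages. The change from P1 to P14 came to 3.30 (SE 0.56, limma adjusted p = 0.000516). In cortex the values were 3.41, 6.30 and 17.2, then 21.3, 34.8 and 20.4, then 14, 22.0, 11.7 and 11.4. P7 lay above P1 (1.62, SE 0.50, limma adjusted p = 0.0223; the call was lost without P1 replicate 1, P1 replicate 2 or P7 replicate 2, at 1.16, 1.52 and 1.39), and P14 overlapped P1 (0.87, adjusted p = 0.117; 1.43 and 0.0137 without P1 replicate 3). In hippocampus P14 held 15.0, 46.3 and 0 against 4.27, 2.23 and 11.1 at P1, and no difference was called (0.63, SE 1.15, limma adjusted p = 0.675). Without hippocampal P14 replicate 3, the library at 0, the difference was 2.22 (adjusted p = 0.0213).

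Thbs1 fell in cortex. The libraries held 41.2, 49.6 and 77.5 at P1, 17.9, 17.0 and 26.3 at P7, and 12.1, 17.6, 19.2 and 0 at P14. Every P7 and P14 library lay below every P1 library. The change from P1 to P14 came to -2.72 (SE 0.81, limma adjusted p = 0.00932), and with Ddx3y as a covariate it was -1.75 and no longer called (adjusted p = 0.123). Without P14 replicate 4, the library at 0, it was -1.70 and still called in limma. In hippocampus Thbs1 had 34.2, 49.5 and 46.7 at P1, 76.1, 108 and 53.0 at P7, then 15.0, 1.10 and 69.9 at P14. The P14 libraries were spread over the whole range (-1.72, SE 0.95, limma adjusted p = 0.154), and the difference was -2.92 without P14 replicate 3 (adjusted p = 0.00747) and -0.38, not called, without P14 replicate 2. At P14 the olfactory bulb held 5.96, 12.4 and 47.2 against 3.58, 6.60 and 6.07 at P1. That difference of 1.40 was not called in limma (SE 0.70, adjusted p = 0.109), but was called in edgeR and DESeq2 on recovered reads, at 2.12 in each, and without P14 replicate 1, at 2.02. Without P14 replicate 3, the highest library, it was 0.62 (limma adjusted p = 0.355).

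Thbs1 and Thbs2 are also expressed by vessel and connective-tissue cells. In the olfactory bulb, where Thbs2 rose, summed endothelial markers went from 22.5-27.2 at P1 to 151-1193 at P14 and summed mural and fibroblast markers (10 genes) from 238-602 to 1037-1410, and all 7 endothelial markers tested were called higher. In cortex, where Thbs1 fell, the endothelial sum was 40.6-517 at P1 and 88.7-648 at P14 and the mural and fibroblast sum 94.0-881 and 549-1252. In hippocampus the endothelial sum was 48.5-125 at P1, 317-650 at P7 and 1.79-52.9 at P14. The mural and fibroblast sum there was 324-1179, 873-1149 and 166-680 at the same ages. The part of these cells in the values of Thbs1 and Thbs2 was not tested.

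Thbs3 fell between P1 and P14 in cortex and hippocampus. Cortical values were 145, 132 and 91.3 at P1, 67.5, 54.9 and 37.2 at P7, then 53.3, 28.9, 53.9 and 34.8 at P14. The P1 libraries lay above all others, and the change from P1 to P14 came to -1.52 (SE 0.27, limma adjusted p = 0.000265). In hippocampus the gene held 88.0, 77.1 and 118 at P1 and 71.3, 138 and 95.6 at P7, then 37.6, 4.41 and 23.3 at P14, where the libraries had 35, 4 and 13 reads. That log2 difference of -2.45 (SE 0.60, limma adjusted p = 0.00555; -1.62 and still called without P14 replicate 2) arose after P7. Thbs3 in the olfactory bulb had 14.7, 27.3 and 36.4, then 36.9, 74.3 and 49.8, then 9.94, 23.4 and 16.7. P14 lay below P7 (-1.65, SE 0.46, limma adjusted p = 0.0124; -1.39 and 0.0619 without P7 replicate 2) and overlapped P1 (-0.61, adjusted p = 0.279). The overlapping gene Mtx1 had mean values of 45.7 in cortex, 34.8 in hippocampus and 23.9 in the olfactory bulb over the 3 ages.

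**Figure D4:**
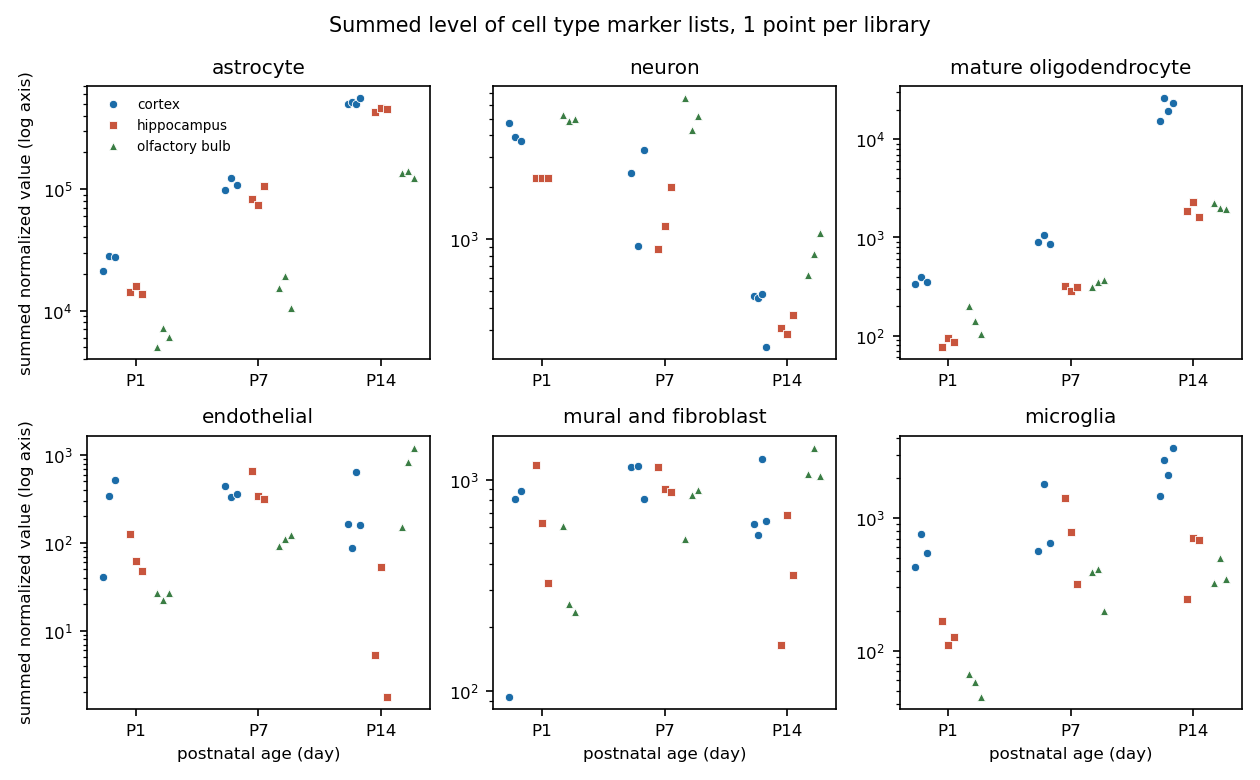
Summed normalized value (log axis) of 6 cell type marker lists at P1, P7 and P14, 1 point per library. Astrocyte sums climb with age and neuron sums are lower at P14 than at P1 in every region, and endothelial sums fall to between 1.79 and 52.9 in hippocampus at P14 while they reach 151 to 1193 in the olfactory bulb.

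The timing differed between members as well as regions. From P1 to P7, 6 of 9 members were called higher and 1 lower in cortex (15.6% and 18.1% of all genes), 5 of 9 higher in hippocampus (11.2% of all genes) and 4 of 8 higher in the olfactory bulb (7.59%; 2 of 8 without P1 replicate 3 or P7 replicate 2). From P7 to P14 the counts were 5 higher and 1 lower in cortex (18.6% and 31.3%; under TMM scaling the higher share of all called genes went from 37.3% to 48.6%; 4 or 5 members in all with any 1 library left out, as Thbs4, Gpc6 or both lost the call), 4 and 1 in hippocampus (12.5% and 17.7%), and 5 and 1 in the olfactory bulb (20.4% and 26.6%). The members that were lower in this step were Gpc4 in cortex and Thbs3 in hippocampus and olfactory bulb. Comparisons of ages share the P7 libraries, so the steps are not independent of each other.

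Likeness of course was described by Pearson's r of log2 values over libraries, averaged over the 3 regions (28 libraries that share age groups and depth). Among members, Sparcl1 and Chrdl1 had a mean r of 0.98, as had Gpc6 and Sparcl1, whereas Thbs3 had -0.65 with Gpc6 and with Chrdl1 and -0.63 with Sparcl1. Of 10398 genes tested in all 3 tables, those most like Sparcl1 were Epas1, Ttyh1 and Lamp1 (mean r 0.995, 0.994 and 0.993), those most like Chrdl1 were Lamp1, Gpc5 and Ntrk2 (0.99 each), and those most like Gpc6 were Sash1, Aplp2 and Tmem229a (0.98 each). Sparc ran closest to Aldh7a1, Scrg1 and Prex2 (0.97 each), and Gpc4 to Npas3, Tmx3 and Ginm1 (0.92, 0.89 and 0.88). For the low thrombospondins the best values were lower: Sltm, Snrnp70 and Zfhx2 for Thbs3 (0.87 each), Abcc4, Tlr4 and Serpinh1 for Thbs2 (0.83, 0.80 and 0.80), and Pabpc4l, Rgs9 and Map4k2 for Thbs1 (0.78, 0.78 and 0.77).

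Receptors and partners of these factors were read from the same libraries, which are astrocyte preparations that also held neuron transcripts. From P1 to P14 limma called 8 of 10 neuron markers lower in cortex and 8 of 10 in hippocampus. In the olfactory bulb 7 of 10 were called lower and 1 higher. The median log2 differences of these markers were -3.20, -2.73 and -3.07 in the same order. The part of neurons in the values of the receptors and partners was not tested. Of 12 thrombospondin receptors and partners, limma called 7 higher at P14 than at P1 and 4 lower in cortex, 6 and 1 of the 9 tested in hippocampus, and 5 and 2 of 9 in the olfactory bulb. Each list count here and below stands beside the shares of all genes tested, which were 24.0% higher and 40.3% lower (cortex), 21.0% and 28.5% (hippocampus), and 24.8% and 31.4% (olfactory bulb). The list's median log2 differences were 0.77, 0.64 and 1.28 in that order, where all genes had -0.27, -0.29 and -0.24. Cacna2d1, the synaptogenic thrombospondin receptor, fell in all 3 regions, by 2.11, 2.95 and 3.46 on the log2 scale in limma. The endocytic receptor gene Lrp1 rose in all 3 (1.49, 1.90 and 1.78), as did the integrin genes Itgav (1.85, 2.00 and 2.06), Itgb1 (0.71, 0.64 and 1.28) and Itga6 (1.23, 0.42 and 1.44), with the hippocampal calls of Itgb1 and Itga6 lost under quantile scaling and that of Itga6 also with array weights, without the variance trend, with Ddx3y as a covariate, or without P1 replicate 2, P1 replicate 3 or P14 replicate 2 (0.43, 0.35 and 0.33). Nlgn1, which encodes neuroligin 1, differed by -0.38 in cortex (adjusted p = 0.00622; -0.16 and not called under TMM scaling), 0.25 in hippocampus (limma adjusted p = 0.210) and 1.60 in the olfactory bulb (limma adjusted p = 0.000142).

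Of the other glypicans and glypican partners, 2 were higher and 6 lower of 11 tested in cortex, 3 and 7 of 12 in hippocampus, and 2 and 3 of 11 in the olfactory bulb (list medians -0.82, -0.51 and -0.18). Gpc5, another glypican gene, rose in all 3 regions (4.19, 7.49 and 4.80), from 63.9-79.3 to 1209-1469 in cortex. Gpc1 fell by 1.33, 1.92 and 2.86 on the log2 scale, and Gpc2 fell too, to 0 in all 3 hippocampal P14 libraries from 62.0-94.4 at P1. Lrrtm4, a postsynaptic glypican receptor, fell by 3.50, 5.35 and 4.72, and Adam9, a metalloprotease gene, rose by 0.78, 1.61 and 1.83. Gpr158, another glypican receptor, differed by -0.82 in cortex (adjusted p = 0.00749), 1.61 in hippocampus (adjusted p = 0.00136) and 0.43 in the olfactory bulb (adjusted p = 0.308) in limma, and Ptprs, a receptor phosphatase gene, by -0.50, -0.46 and -0.34 (limma adjusted p = 0.000609, 0.0136 and 0.0640; the hippocampal call was lost, at -0.36, without P1 replicate 2, and the olfactory bulb difference was called, at -0.48, without P14 replicate 2). Gria2, the subunit gene tied to Chrdl1, fell in cortex and hippocampus (-1.70 and -0.63) and rose in the olfactory bulb (0.63, limma adjusted p = 0.0144; 0.21 and not called under quantile scaling). The hippocampal call of Gria2 was lost without P1 replicate 3 (-0.40) and the olfactory bulb call without P1 replicate 1 or 2 (0.48 and 0.59), and both were lost with array weights or without the variance trend.

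Among other SPARC family genes and hevin partners, 4 were higher and 6 lower of 10 in cortex, 3 and 3 of 8 in hippocampus, and 5 and 3 of 9 in the olfactory bulb (list medians -0.47, -0.03 and 0.85). Of the MDGA genes, whose proteins block neuroligin, Mdga2 rose (0.96, 2.88 and 2.74) and Mdga1 fell (-2.18, -6.54 and -4.13; -2.61 in the olfactory bulb without P14 replicate 1). Spock1 fell (-3.16, -3.64 and -3.42; -2.15 in the olfactory bulb without P14 replicate 1) and its relative Spock2 rose (0.44, 1.09 and 1.57; the cortical call was lost with array weights, without the variance trend, with Ddx3y as a covariate, and at 0.21, 0.43 and 0.38 without P1 replicate 1, P14 replicate 1 or P14 replicate 3). Among BMP genes, which bear on Chrdl1, 4 of 8 were higher and 2 lower in cortex, 3 and 1 of 7 in hippocampus, and 3 and 2 of 7 in the olfactory bulb (list medians 0.47, -0.27 and 0.89). The receptor genes Bmpr1a (0.49, 1.35 and 2.37), Bmpr1b (1.64, 2.95 and 3.72) and Bmpr2 (0.45, 0.88 and 0.98) rose, though under quantile scaling Bmpr2 was at 0.04 in cortex and -0.06 in hippocampus, and Acvr2a fell (-0.98, -1.20 and -1.11; -0.70 in the olfactory bulb without P14 replicate 3).

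Of 12 other secreted regulators of synapses from glia, 4 were higher and 3 lower of 9 tested in cortex, 3 and 3 of 9 in hippocampus, and 5 and 2 of 8 in the olfactory bulb (list medians 0.39, -0.92 and 1.51). Il33, which encodes an interleukin, rose by 4.87, 6.92 and 7.89, and Apoe, the lipoprotein gene, by 2.80, 4.48 and 5.45. Ndp, which encodes norrin, rose by 2.29, 2.08 and 2.30, and Tnc, which encodes the matrix protein tenascin-C, fell by 3.54, 3.23 and 1.89.

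At P28 the question was whether loss of Gabbr1 moved these genes. Gabbr1 itself was at 1746, 1930.1, 1159 and 927 in cortical controls and 89.8, 96.5, 134 and 211 in knockouts (log2 difference -3.45, SE 0.29, limma adjusted p = 4.40e-05). In hippocampus it was 779.8 and 824 against 167, 379.9, 152 and 256 (-1.84, limma adjusted p = 0.936; -2.10 and 0.0294 without knockout replicate 2), and in the olfactory bulb 318, 184 and 189 against 63.6, 99.5 and 78.2 (-1.48, limma adjusted p = 0.877; -1.62 without control replicate 2). The groups did not overlap in any region. None of the members tested (7 in cortex, 9 in hippocampus, 8 in the olfactory bulb) was called in limma, edgeR or DESeq2. The background was as sparse: limma called 0.00982% of 10188 genes in cortex, 0.0% of 11639 in hippocampus, and in the olfactory bulb 0.0% of 11539, with 221, 296 and 349 genes at an unadjusted p under 0.05; edgeR called 0 genes in hippocampus and 0 in the olfactory bulb, and DESeq2 1 and 22. On simulated counts modelled on these tables, the same test recovered 60%, 14% and 32% of genes changed 4-fold and 15%, 0% and 1% of genes changed 2-fold, so changes of such sizes could be missed.

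Chrdl1 was the member whose cortical groups did not overlap: controls had 1319, 1379, 1475 and 1209 and knockouts 1906, 1804, 2012 and 1535. Every knockout library was above every control, a log2 difference of 0.43 with a 95% interval of 0.07 to 0.78 (unadjusted p = 0.0213, limma adjusted p = 1.00). Of all genes tested in cortex, 0.864% were higher without overlap. The cortex libraries were deposited in 2 rounds, told apart by their sample numbers, and the difference was 0.50 within the first and 0.20 within the second, which held 1 knockout. In hippocampus Chrdl1 held 187 and 110.3 in controls and 260.5, 527, 239 and 197 in knockouts, again without overlap (0.98, interval 0.01 to 1.95, limma adjusted p = 0.936); without knockout replicate 2 it was 0.68. There, 7.08% of genes were higher without overlap. Chrdl1 is X-linked, and knockout replicate 2, at 527, was the only hippocampal P28 library with Ddx3y at 0. The olfactory bulb groups overlapped, at 1857, 3443 and 1482 against 1621, 1516 and 1952 (-0.33, interval -0.99 to 0.33; 0.02 without control replicate 2).

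Sparcl1 overlapped between genotypes in every region. Cortical controls held 45785, 53002, 35005 and 30357 and knockouts 49333, 48673, 47088 and 28879 (0.09, interval -0.49 to 0.66). In hippocampus 24618 and 29890.3 stood against 40749.6, 65148, 31200.2 and 24472 (0.48, interval -0.74 to 1.69; 0.21 without knockout replicate 2), and in the olfactory bulb 37347, 48634 and 33491 against 39531, 34873 and 33923 (-0.13, interval -0.70 to 0.44; 0.03 without control replicate 2). Sparc had 1949, 1916, 1178 and 844 in cortical controls and 2014, 884, 893 and 743 in knockouts (-0.41, interval -1.08 to 0.26), 3248 and 3679.7 against 4193, 3992, 2018 and 1563 in hippocampus (-0.36; -0.55 without knockout replicate 2), and 3623, 5672 and 2364 against 3225, 2811 and 2411 in the olfactory bulb (-0.38; -0.07 without control replicate 2). The log2 ratio of Sparcl1 to Sparc was higher in knockouts by 0.50 in cortex (exact permutation p = 0.171), 0.83 in hippocampus (exact permutation p = 0.133, the smallest possible for 4 against 2, adjusted p = 0.229; 0.76 without knockout replicate 2) and 0.26 in the olfactory bulb (exact permutation p = 0.4; 0.09 without control replicate 2). Only the hippocampal groups did not overlap in this ratio.

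Both glypicans overlapped between genotypes in cortex: Gpc4 ran from 74.5 to 95.4 in controls and 77.4 to 92.3 in knockouts (0.06, interval -0.47 to 0.59), and Gpc6 from 527 to 739 and 571 to 890.3 (0.07, interval -0.36 to 0.49). In hippocampus Gpc6 was 468 and 349.6 in controls and 479, 1592, 682 and 626 in knockouts, without overlap (0.90, interval -0.10 to 1.90, limma adjusted p = 0.936). The highest of these was replicate 2 with little Rn45s, and without it the difference was 0.54. Of all genes tested in hippocampus, 7.08% were higher without overlap. Gpc4 in the olfactory bulb was 70.0, 8.51 and 109.8 against 86.0, 75.7 and 167. The value of 8.51 rests on 5 reads in control replicate 2, and the difference went from 1.30 to 0.23 without that library.

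Thbs1 and Thbs2 were low in cortex at P28, at 0 to 16.6 and 0 to 9.87 over both genotypes, and fell under the minimum mean for a test. In hippocampus Thbs2 was 28.9 and 39.1 in controls and 11.6, 2.89, 6.39 and 21.6 in knockouts. These groups did not overlap (-1.87, interval -3.93 to 0.20, limma adjusted p = 0.936; -1.44 without knockout replicate 2), where 7.92% of all genes were lower without overlap. Thbs1 in the same libraries was 56.3 and 49.8 against 12.6, 0, 2.40 and 67.0, so knockout replicate 4 lay above both controls (-2.85, interval -6.18 to 0.48; -1.88 without knockout replicate 2, the library at 0). Thbs2 in the olfactory bulb was at 210.1, 247 and 261 in controls and 209.7, 175 and 226 in knockouts (-0.23, interval -0.80 to 0.33). Thbs4 varied widely within genotypes, at 18.0, 3.50, 126 and 174 in cortical controls and 33.7, 21.0, 22.4 and 72.0 in knockouts, and the higher values in both genotypes came from the second round of deposit. Within the first round the cortical difference of Thbs4 was 1.5 and within the second -1.03. In hippocampus its difference was 0.43 without knockout replicate 2 and was not called. Thbs3 overlapped in all 3 regions (0.35, -0.54 and 0.07; -0.39 in hippocampus without knockout replicate 2 and -0.18 in the olfactory bulb without control replicate 2).

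**Figure D5:**
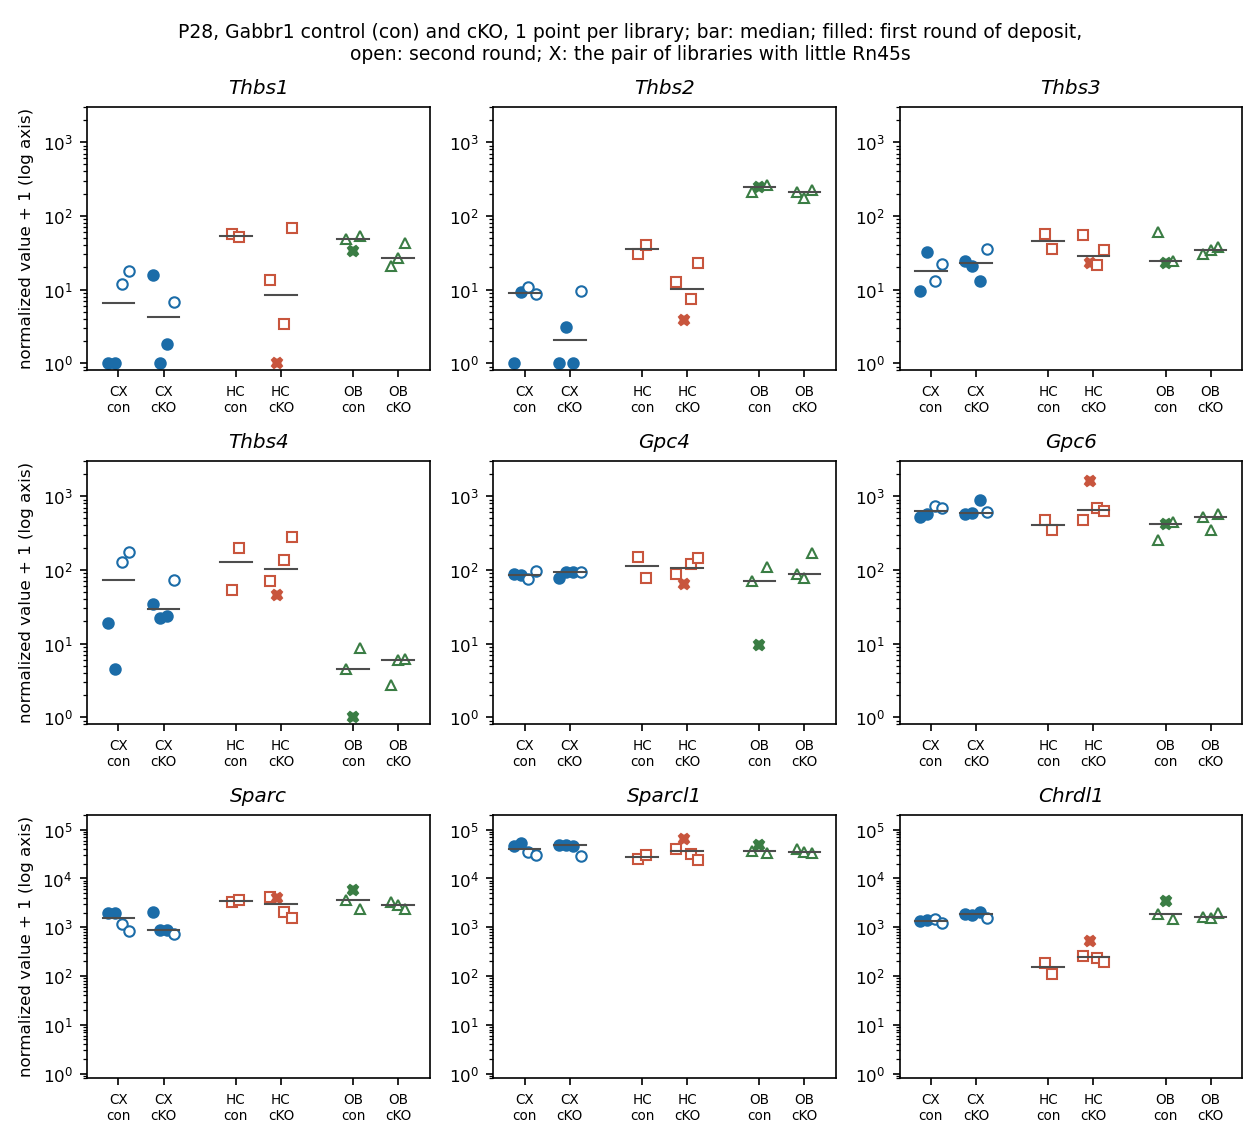
Normalized value plus 1 (log axis) of the 9 genes at P28 in control and cKO libraries of each region; bars are medians, filled symbols the first round of deposit, open symbols the second, and crosses the libraries with little Rn45s. Chrdl1 in cortex sits at 1209 to 1475 in controls and 1535 to 2012 in knockouts, while the symbols of most other members overlap.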

How the data were processed

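Bulk RNA was sequenced from 48 libraries labelled as astrocytes. Reads were aligned with STAR 2.5.0a to mm10 and DESeq2 1.20.0 was used, per the submitters' processing notes; the libraries were made from low amounts of total RNA with a Trio kit, per the labels' protocols. The deposited signal values are gene counts that the authors divided by 1 factor per library, in 6 tables scaled separately; dividing by the smallest step gave whole reads for 100.0% of values (tolerance 0.1). This check is weak for olfactory bulb knockout replicate 2, whose step is near 1. Dates had replaced 27 symbols in each of 5 tables, which were restored from the row order of the sixth table.

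Differences were tested per table with limma 3.58.1 (R 4.3.3) with a mean-variance trend on log2(value + 1), for genes with a table mean of at least 10, with Benjamini-Hochberg adjustment over all genes tested; folds of low genes are understated on this scale. Ratios within a library were compared by exact two-sided permutation tests. Recovered reads were tested with edgeR 4.0.16 and DESeq2 1.42.0 as alternatives, beside other pseudocounts (0.1, 8), filters (none, 100), scalings (TMM, median-ratio, quantile), variance models, covariates and leaving out each library. The limma steps were tested on simulated counts. Replicate numbers follow accession order and pair nothing. Levels per kilobase used GENCODE exon lengths (23376 symbols matched).

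Named were the 9 members in every table, Gabbr1, listed partners called the same way in all 3 regions or at P28, 6 partners whatever their values (Cacna2d1, Nlgn1, Gpr158, Ptprs, Gria2 and 1 that is not reported here), and the 3 genes most like each member; Thbs4 has none, being under the minimum in olfactory bulb. The members and lists were chosen with earlier results of these data known. The within-round values at P28 were added after seeing the data.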

Additional observations from a re-analysis of the deposited data

Results flagged for a closer look

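For 3 members the estimates in different regions had opposite signs, with every library of the later age on 1 side of the earlier age in 1 region and on the other side in another. Thbs1 at P7 against P1 differed on the log2 scale by -1.392 (cortex), 0.8082 (hippocampus) and 0.8212 (olfactory bulb), none of them called. Thbs3 at P7 against P1 differed by -1.206 in cortex, where it was called, and by 1.042 in the olfactory bulb, where it was not. Gpc4 at P14 against P7 differed by -0.7187 in cortex and 1.135 in the olfactory bulb, both called, and by 0.5055 in hippocampus, which was not. The difference between regions was not tested in any of these, since the regions' tables were scaled separately. The share of all genes with such opposite signs without overlap was not counted, so whether 3 members is more than usual cannot be told.

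In 4 of the 36 sets of values tested, each a gene in a group of 4 libraries, 1 library stood apart from the others. Chance gives about 1 in 20 such sets, but sets that share libraries are not independent, and all 4 were in the P28 cortical knockouts: Gpc4 at 77.4 in replicate 1, Sparc at 2014 in replicate 1, Gpc6 at 890.3 in replicate 3 and Sparcl1 at 28879 in replicate 4, the knockout from the second round of deposit. For Gpc4 the distance was small, as these knockouts ran only from 29.2 to 34.8 per kilobase of exon.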

How the results depend on the processing

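The P14 against P1 calls of Sparcl1, Chrdl1, Sparc and Gpc6 in all 3 regions, of Thbs3 and Thbs4 in cortex and hippocampus and of Thbs2 in the olfactory bulb held under every alternative that tested them. Thbs4 estimates moved most, from 2.98 to 6.48 in cortex. Counts of members called were 7 in cortex for both P7 and P14 against P1 and became 4.0 with a minimum mean of 100, which left 5 members to test. For hippocampus P14 against P7 the count of 5 became 3.0 with quantile scaling and ranged from 3.0 to 6.0 with 1 library left out. The count of 4 for olfactory bulb P7 against P1 became 2.0 without the variance trend and 7.0 with array weights, and ranged from 2.0 to 4.0 with 1 library left out; the cause was not tested. Reads limit the thrombospondins, several of whose libraries held fewer than 10.

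Differences that were not called and changed sign were the following, with the cause not tested. Sparc in cortex, P7 against P1, was 0.0008 with TMM, 0.0124 in edgeR and 0.0094 in DESeq2, and ran from -0.1655 to 0.065 with 1 library left out. Thbs2 in hippocampus, P14 against P7, was 0.02 at pseudocount 8, 1.2087 with quantile scaling, 0.709 in edgeR and 0.6954 in DESeq2, and ran from -1.8263 to 0.9558; against P1 it was -0.2308 at pseudocount 0.1 and ran from -0.5583 to 2.2238. Thbs3 in hippocampus, P7 against P1, ran from -0.1679 to 0.3022 and Thbs1 in the olfactory bulb, P14 against P7, from -0.1973 to 1.1984. Bmpr2, called in hippocampus at P14 against P1, was -0.0636 with quantile scaling.

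At P28 in cortex, with the round of deposit as a covariate, Thbs4 was 0.5958 and Sparcl1 -0.0796, and Gpc6 was -0.0527 with array weights. With 1 cortex library left out, Thbs4 ran from -1.15 to 0.6089, Gpc4 from -0.0006 to 0.1174, Gpc6 from -0.0836 to 0.1477, Sparcl1 from -0.0484 to 0.2711 and the log2 ratio of Gpc4 to Gpc6 from -0.1483 to 0.1236. In hippocampus Gpc4 was 0.1627 with array weights and 0.142 with Ddx3y as a covariate and ran from -0.5809 to 0.3844, and Thbs4 ran from -0.9312 to 0.9971. In the olfactory bulb Thbs3 was -0.0772 in edgeR and -0.0879 in DESeq2 and ran from -0.1783 to 0.5178, Chrdl1 was 0.0122 with array weights and ran from -0.584 to 0.024, Sparcl1 ran from -0.2424 to 0.0267 and the log2 ratio of Gpc4 to Gpc6 from -0.2543 to 1.5414. No paired analysis was possible because the replicate numbers follow accession order only.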

Other observations

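Gabbr1, the gene removed at P28, was itself read at the earlier ages. In cortex it held 1249, 1153 and 1080.2 at P1, 3023, 2704 and 2752 at P7, and 4518, 4901, 4474 and 5041 at P14, a log2 difference from P1 to P14 of 2.03 (SE 0.08, limma adjusted p = 2.76e-10). In hippocampus it went from 413, 384 and 396 through 1572, 1625 and 2181 to 2797, 3224 and 3679.7, a difference of 3.01 (SE 0.15, limma adjusted p = 2.77e-08). In the olfactory bulb it had 597, 514 and 489.7, then 553, 505 and 542, then 588, 444 and 582, and the difference of 0.01 had a 95% interval of -0.32 to 0.33 (limma adjusted p = 0.978). Over the same libraries of the olfactory bulb Sparcl1, Sparc, Chrdl1 and Gpc6 rose, and a link between these courses and that of Gabbr1 was not tested. Whether the change of Gabbr1 differs between regions was not tested.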
